A study of Mus musculus with 18 samples.

Results

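The genes described here encode the 8 subunits of TRiC (also called CCT), the chaperonin of the cytosol: Tcp1, Cct2, Cct3, Cct4, Cct5, Cct6a, Cct7 and Cct8. They were taken by gene symbol, and all 8 were found among the 24421 genes of the count table. RNA was sequenced from 3 mouse cell populations, 4T1, 4T1R1 and 4T1R2, each either untreated or exposed to the HSP90 inhibitor 17-DMAG, which gives 6 groups of 3 libraries. 4T1 is a mammary carcinoma line, given here with the strain BALB/cfC3H and a wild type genotype, and it is the origin of all 6 groups. 4T1R1 and 4T1R2 are populations of 4T1 cells that were selected separately with 17-DMAG, by 3 rounds of 1.5 µM for 48 h in the sample records, and each is a single selected population. The series description gives another dose and a shorter exposure for that selection. Treated cells received 1.5 µM 17-DMAG, for 48 h in the sample records but 2 h in the series description, so the time of exposure behind the treated groups is uncertain. The comparisons ask how the transcripts of the chaperonin respond to inhibition of another chaperone, and whether level and response differ in cells selected for resistance.

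TRiC is built from a pair of stacked rings, each holding every subunit once, so the subunits are needed in equal number in the finished complex. Each subunit binds and splits ATP, and the closing of the built-in lid that follows folds proteins held in the cavity. Actin and tubulin cannot fold without TRiC, and WD40-repeat proteins such as the activators of the anaphase-promoting complex are further clients. Prefoldin hands over unfolded actin and tubulin, phosducin-like proteins work with TRiC on other clients, and the tubulin cofactors take over after it. HSP90 inhibitors of the benzoquinone class release the heat shock transcription factor HSF1, which binds inverted repeats of the unit GAA, and genes of the cytosolic chaperonin have been described among its targets.

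Library totals ran from 23354461 to 55094630 counts. The subunits took 8686 to 49100 counts each per library and had a mean normalized count above that of 97.9% to 99.4% of the 13507 genes tested, so counting error was small for them. A normalized count is the count divided by the library size after TMM scaling, put back on the scale of the mean library. In treated 4T1, the difference between replicates 1 and 2 was below sampling noise (chi-square per gene 1.10, where 17 other same-group pairs gave 2.04 to 2.22), and the pair was counted as 1 sample, which leaves n = 2 in that group and n = 3 in the other groups. Names of the 4T1R1 libraries belong to another number series than those of 4T1 and 4T1R2, so differences in level of 4T1R1 from 4T1 or 4T1R2 cannot be told apart from that. All 6 epithelial markers had a mean of at least 100 normalized counts, and their sum was 76164 to 77557 in the 4T1 libraries, 51351 to 53921 in 4T1R1 and 59347 to 62805 in 4T1R2. Sums over 5 fibroblast markers were 399 to 1043, over 5 leukocyte markers 145 to 248 and over 4 endothelial markers 4.32 to 17.6, with the fibroblast marker Lum at 0 in every library. The fibroblast sum, almost all of it from Pdgfra, was lower after 17-DMAG in 4T1 (399 to 421, against 688 to 766 untreated), in 4T1R1 (710 to 772, against 835 to 895) and in 4T1R2 (799 to 909, against 920 to 1043). The part of the epithelial and fibroblast sums in the results below was not tested. The heat shock genes Hspa1b and Hsph1 served as a check of the treatment. Hspa1b had a log2 fold change (log2FC) after 17-DMAG of 5.11 in 4T1, 3.23 in 4T1R1 and 2.29 in 4T1R2, and Hsph1 of 2.72, 1.75 and 1.18.

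The 8 genes lie on 8 different chromosomes of the mouse genome (GRCm38, GENCODE annotation). Tcp1, which encodes the alpha subunit, is at chr17:12915701-12925067, and Cct2, for the beta subunit, at chr10:117051001-117063814. Cct3, for gamma, is at chr3:88297116-88321767, and Cct4, for delta, at chr11:22990519-23003780. Cct5, for epsilon, is at chr15:31590800-31601804, and Cct6a, for zeta, at chr5:129786998-129846371. Cct7, for eta, is at chr6:85451514-85468475, and Cct8, for theta, at chr16:87483326-87495873. The strand is plus for Tcp1, Cct3, Cct4, Cct6a and Cct7 and minus for Cct2, Cct5 and Cct8.

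Since heat shock factors bind inverted repeats of GAA, the promoters were searched for pairs of that unit, GAANNTTC and TTCNNGAA, which read the same on both strands. RefSeq windows (GRCm38, 250 bases before to 50 after a start) were at hand for 7 subunits, with 9 windows in all, and Cct4 had none. A pair was found in 3 windows, 1 each of Cct2, Cct5 and Cct6a. These 3 are printed because they are the only matches among the subunits. Beside them are runs of at least 3 units in Hspe1 and Hsph1, 2 genes with larger responses. The run in Hspe1 goes on with a further gaa in the same spacing, left in lower case. Capitals mark the GAA and TTC units of the pair, or the first 3 units of the run:
Cct2 (chr10:117063399-117063428, minus strand, 42 bases before the second start): ccccaagtgaaGAAgtTTCtagcaggacct
Cct5 (chr15:31601862-31601891, minus strand, 34 bases before the first start): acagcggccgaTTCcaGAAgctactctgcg
Cct6a (chr5:129787369-129787398, plus strand, base 25 from the start): gcgtaagacttTTCgaGAAgaccccgcaga
Hspe1 (chr1:55088051-55088080, plus strand, 89 bases before the start): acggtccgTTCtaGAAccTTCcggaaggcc
Hsph1 (chr5:149636287-149636316, minus strand, base 37 from the first start): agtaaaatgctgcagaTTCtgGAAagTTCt
Of all 32851 promoter windows, 7.86% held GAANNTTC, 8.52% held TTCNNGAA and 15.1% held either, so pairs are common. A run of 3 units was in 0.603% of all windows and in none of the 9 subunit windows. The windows of Tcp1, Cct3, Cct7 and Cct8 and the other windows of Cct2 and Cct5 held no pair. The site of Hspe1 lies also in a window of Hspd1, which starts beside it, and the windows of Hspa1b and Dnajb1 held no run of 3 units. The presence of these letters was not tested for binding.

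After 17-DMAG, transcripts of all 8 subunits rose in 4T1 cells, in edgeR's quasi-likelihood test at an adjusted P-value under 0.05. Over all genes tested, 18.4% were called higher and 17.9% lower. The median log2FC of the subunits was 0.34, a rise of 26.2%, while the median of all genes was 0.00064. In each of the 8 genes every treated library was above every untreated one, as the plot of normalized counts by library shows. The share of all genes with the same separation is not given, here or below, so non-overlap only describes the libraries. Together the subunits took 0.419% ± 0.0052 (SD, n = 3) of all counts in untreated 4T1 and 0.487% ± 0.0063 (SD, n = 2) after 17-DMAG. In bulk RNA, fewer cells of a type and less RNA per cell cannot be told apart.

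**Figure D1:**
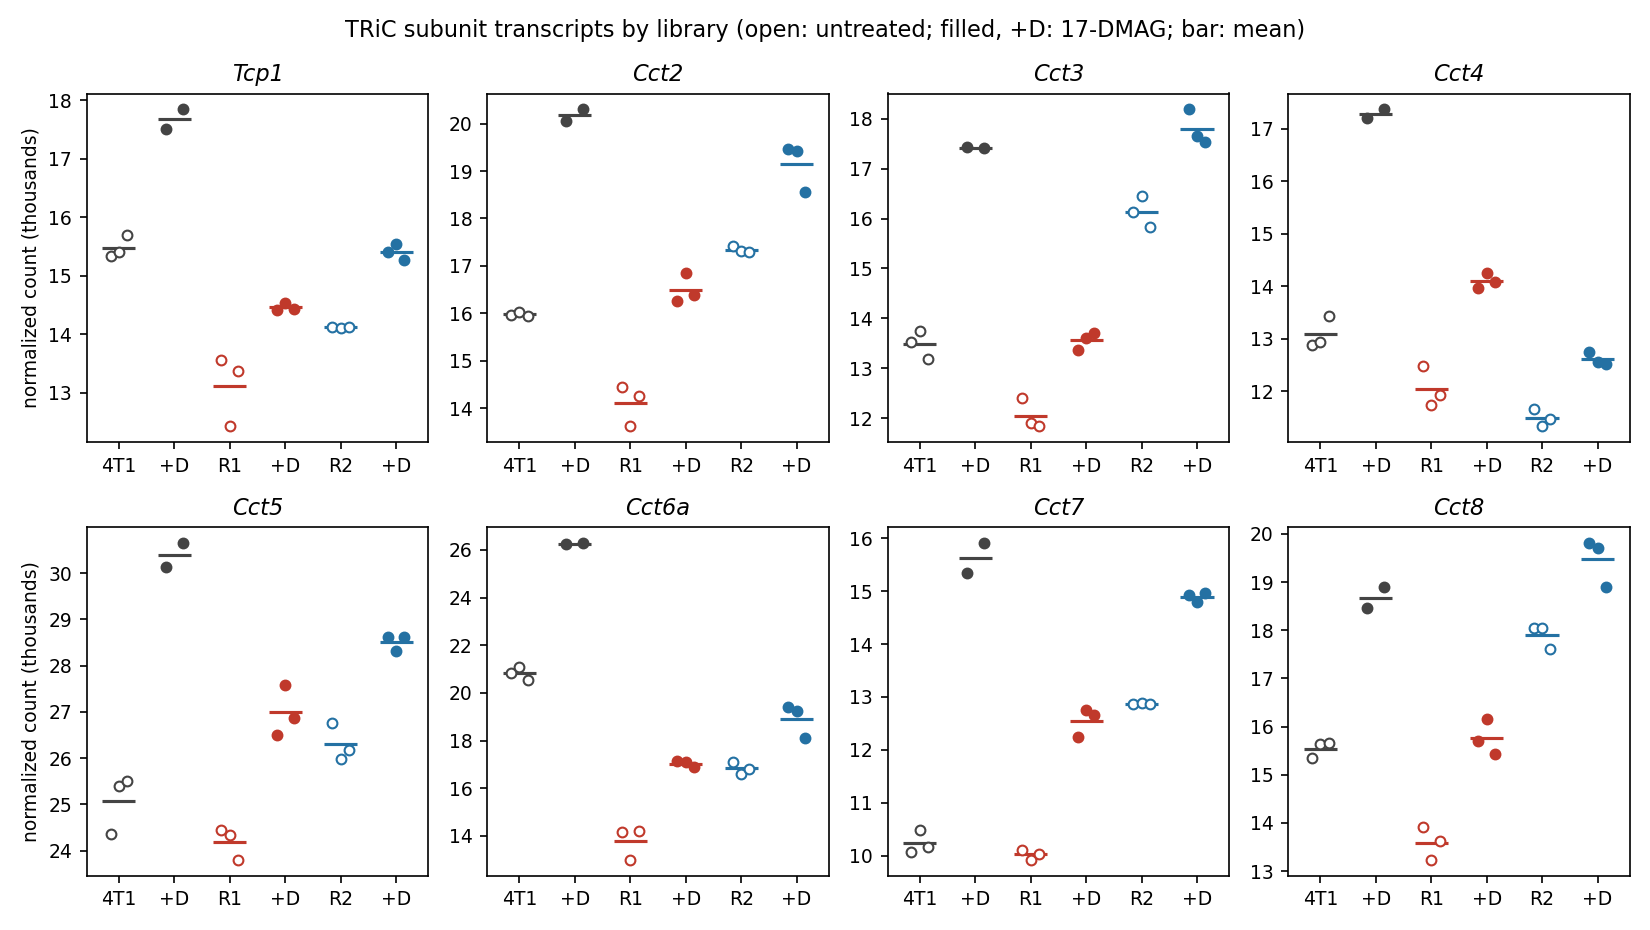
Normalized counts (axes not starting at 0) of each TRiC subunit in every library, by group: 4T1, 4T1R1 (R1) and 4T1R2 (R2), open circles untreated, filled circles with 17-DMAG (+D), horizontal bars the group mean; the filled point of 4T1 that stands for replicates 1 and 2 is their average. In all 8 panels the treated libraries of a population lie above its untreated ones, with the largest step in fold for Cct7 in 4T1 (10244 to 15629).

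The rise in 4T1 was uneven. Cct7 moved most: its normalized counts were 10073, 10482 and 10177 in untreated 4T1 and 15349 and 15910 in treated 4T1. That is a log2FC of 0.61 (95% interval 0.55 to 0.67, adjusted P-value 1.01e-20), or 1.53-fold. Cct7 contacts Cct8 and Cct5 in the ring, which moved less. Counts of Cct8 were 15341, 15633 and 15651 untreated and 18458 and 18897 treated (log2FC 0.27, adjusted P-value 9.62e-10). Counts of Cct5, the highest of the 8, were 24351, 25393 and 25504 untreated and 30135 and 30656 treated (log2FC 0.28, adjusted P-value 3.21e-11). Among the subunits known to bind ATP more tightly (Tcp1, Cct2, Cct4 and Cct5), the largest change was that of Cct4 and the smallest that of Tcp1. For Cct4 the counts were 12880, 12940 and 13438 untreated and 17207 and 17372 treated (log2FC 0.40, adjusted P-value 1.31e-14). Tcp1 had counts of 15329, 15405 and 15701 untreated and 17509 and 17842 treated (log2FC 0.19, 95% interval 0.13 to 0.25, adjusted P-value 1.85e-06). Scaling by total counts alone ended the call of Tcp1, with a log2FC of 0.076 and an adjusted P-value of 0.0834. The other changes were 0.34 for Cct2, 0.37 for Cct3 and 0.33 for Cct6a.

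In 4T1R1 the 8 subunits rose as well, against 13.9% of all genes called higher and 14.3% lower. Their median log2FC was 0.22 (16.5%). Cct7 again had the largest estimate, from 10118, 9926 and 10045 normalized counts untreated to 12243, 12761 and 12663 treated (log2FC 0.32, 95% interval 0.27 to 0.38). Cct6a was close to it, from 14171, 12996 and 14222 to 17126, 17084 and 16899 (log2FC 0.30, 95% interval 0.25 to 0.36). The smallest estimate was that of Tcp1 at 0.14 (adjusted P-value 0.000119). Treated and untreated libraries did not overlap for any subunit in 4T1R1, and the share of all counts went from 0.371% ± 0.013 (SD, n = 3) to 0.441% ± 0.0031 (SD, n = 3).

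In 4T1R2 all 8 were also called higher, in a comparison where 6.18% of all genes were higher and 4.35% lower. The changes were small, with a median log2FC of 0.14 (9.98%) and a range from 0.12 for Cct5 to 0.21 for Cct7. Cct7 had 12877, 12880 and 12868 normalized counts untreated and 14922, 14799 and 14968 treated (95% interval of the log2FC 0.16 to 0.26, adjusted P-value 1.70e-07). No treated library overlapped an untreated one in any of the genes. The highest adjusted P-value of the 8 was 0.00144, for Cct8, whose treated libraries had 19814, 19717 and 18906 normalized counts and its untreated ones 18056, 18044 and 17612. Under scaling by total counts alone, 4 of the 8 calls remained in 4T1R2, and Tcp1, Cct4, Cct5 and Cct8 were at adjusted P-values from 0.0544 to 0.10. The share of all counts went from 0.435% ± 0.0042 (SD, n = 3) to 0.465% ± 0.0094 (SD, n = 3).

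The size of the response fell in the order 4T1, 4T1R1, 4T1R2 in all 8 genes by point estimate. The differences were tested as interactions, which share the treated and untreated 4T1 libraries. Each population is a single one, so the P-values between populations measure spread among libraries, not among selected populations. In 4T1R1 the response was smaller than in 4T1 for 5 subunits, against 9.08% of all genes with a smaller log2FC and 9.16% with a larger one. It was smaller too in all 5 heat shock genes used as check (Hspa1b, Hsph1, Hspa8, Hsp90aa1 and Dnajb1, median -0.85). The same held for both mitochondrial chaperonin genes, Hspd1 and Hspe1 (median -0.39). Of 6 prefoldin genes 0 were smaller and 1 larger. Cct7 had the largest difference (log2FC smaller by 0.29 units, value -0.29, 95% interval -0.37 to -0.21, adjusted P-value 6.17e-07), followed by Cct3 at -0.20 (adjusted P-value 0.000288), Cct4 at -0.17 (0.00143), Cct5 at -0.12 (0.0168) and Cct2 at -0.11 (0.0424). For Tcp1, Cct6a and Cct8 the differences were -0.051 (95% interval -0.13 to 0.031), -0.031 (-0.12 to 0.057) and -0.050 (-0.13 to 0.030), so a difference as large as that of Cct2 lies within their intervals. The call of Cct2 was near the threshold: it was lost in 11 of 19 fits that left out a library or the averaged pair, at adjusted P-values from 0.0505 to 0.188. These were the fits without any 1 of the 3 untreated 4T1 libraries, 17-DMAG-treated 4T1 replicate 3, the averaged pair, replicate 1 or 3 of either 4T1R1 group, or untreated 4T1R2 replicate 2 or 3. It was also lost under RLE scaling (0.0586), with at least 10 counts in every library (0.069) and when only the groups compared were fitted (0.0646). The call of Cct5 was lost without untreated 4T1 replicate 1, 17-DMAG-treated 4T1 replicate 3 or 17-DMAG-treated 4T1R1 replicate 1, at adjusted P-values from 0.0576 to 0.122.

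In 4T1R2 the response was smaller than in 4T1 for 7 subunits, where 8.16% of all genes had a smaller log2FC and 9.62% a larger one. All 5 heat shock check genes (median -1.18) and both mitochondrial chaperonin genes (median -0.64) also had smaller responses, and of 6 prefoldin genes edgeR called 0. The differences were -0.40 for Cct7 (95% interval -0.48 to -0.32, adjusted P-value 1.66e-10), -0.27 for Cct4, -0.23 for Cct3, -0.19 for Cct2, -0.17 for Cct6a, -0.16 for Cct5 and -0.14 for Cct8. Tcp1 did not pass the test, with -0.066 (95% interval -0.15 to 0.017, adjusted P-value 0.301). Without 17-DMAG-treated 4T1 replicate 3 the call of Cct8 was lost, at -0.12 and an adjusted P-value of 0.104. Between the resistant populations edgeR called 0 of the 8 differences in response, while 0.918% of all genes had a smaller log2FC in 4T1R2 than in 4T1R1 and 1.21% a larger one. At an unadjusted p under 0.05 there were 5 of 8, all smaller in 4T1R2, and DESeq2 called 2, Cct6a and Cct7. The estimates ran from -0.14 for Cct6a (95% interval -0.22 to -0.053) to -0.014 for Tcp1. Cct6a passed the edgeR test without untreated 4T1R1 replicate 1 (-0.16, adjusted P-value 0.0421) or untreated 4T1R1 replicate 3 (-0.16, adjusted P-value 0.0272).

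These differences in response depend on how libraries are scaled. When libraries were scaled only by their totals, the all-gene median moved by -0.11 in the 4T1 response and by 0.15 in the difference of 4T1R1 from 4T1. There the median over the subunits was 0.034 in place of -0.12, and 1 of 8 was called smaller. Relative to the median of all genes, the subunits were at -0.11 under either scaling. In the difference of 4T1R2 from 4T1 they were at -0.18 relative to that median under either scaling, with 4 of 8 called smaller under total counts. A change of scaling moves all genes of a comparison by nearly the same amount. Equal values relative to the median were therefore fixed in advance and do not test the smaller response.

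**Figure D2:**
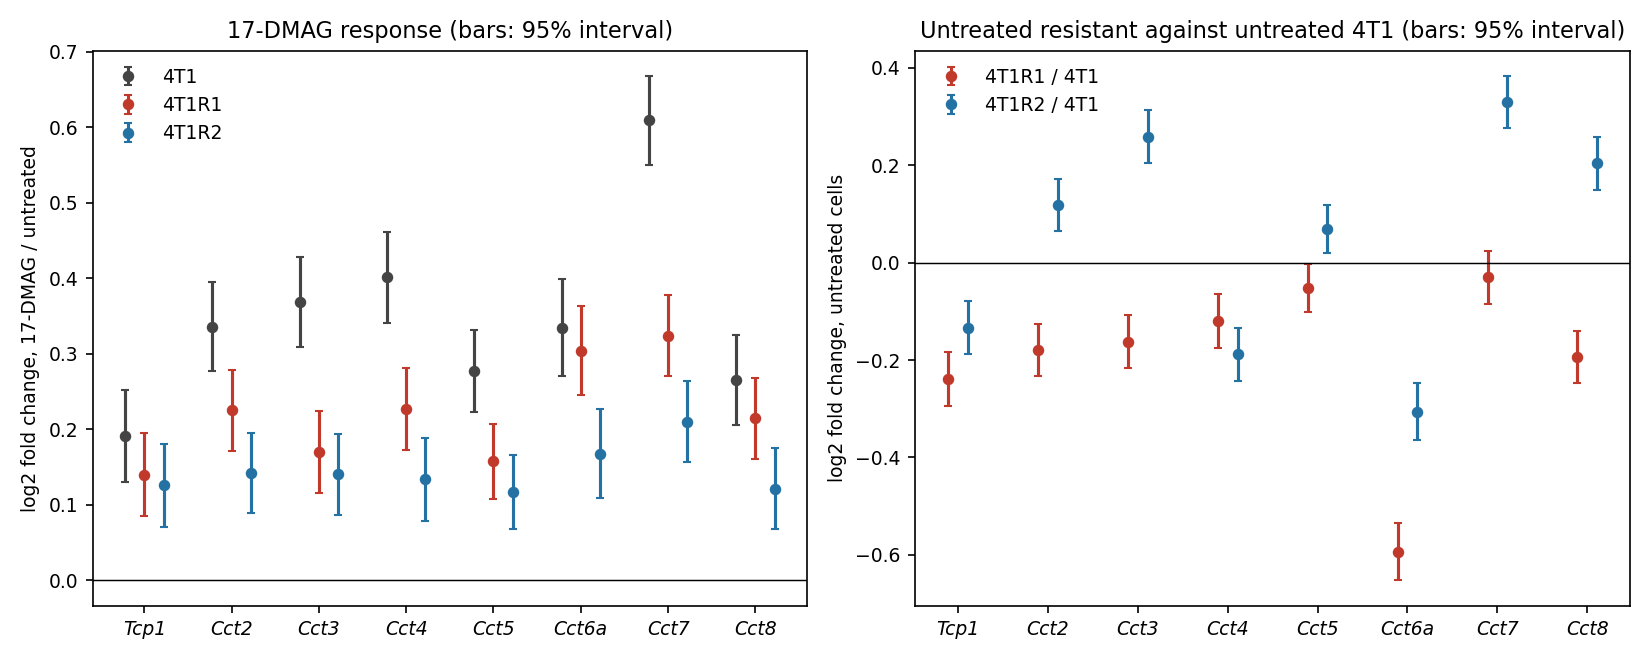
Left, log2FC of each subunit after 17-DMAG in 4T1, 4T1R1 and 4T1R2; right, log2FC of untreated 4T1R1 and 4T1R2 against untreated 4T1; points are edgeR estimates and bars 95% intervals. On the left all points lie above 0 and those of 4T1 lie highest (0.61 for Cct7); on the right 4T1R1 lies below 0 for 6 subunits that passed the test, while 4T1R2 has 5 above and 3 below.

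Without treatment, 4T1R1 cells had less of 6 subunit transcripts than 4T1, and none was called higher, at a background of 27.5% of all genes lower and 25.2% higher. The median log2FC of the subunits was -0.17. Over all genes the median absolute log2FC was 0.226, which among the subunits only Cct6a and Tcp1 exceeded. Cct6a stood apart: untreated 4T1 had 20833, 21096 and 20549 normalized counts and untreated 4T1R1 14171, 12996 and 14222, with no overlap (log2FC -0.59, 95% interval -0.65 to -0.53, adjusted P-value 1.15e-20). Tcp1 fell by 0.24 on the log2 scale, Cct8 by 0.19, Cct2 by 0.18, Cct3 by 0.16 and Cct4 by 0.12, again with no overlap between libraries. Cct5 and Cct7 did not pass the test. Cct7 had 9926 to 10118 normalized counts in untreated 4T1R1 and 10073 to 10482 in untreated 4T1 (log2FC -0.030, 95% interval -0.084 to 0.024, adjusted P-value 0.352). Cct5 had a log2FC of -0.052 (95% interval -0.10 to -0.0027, adjusted P-value 0.0707) and was called lower without untreated 4T1 replicate 1 (-0.073, adjusted P-value 0.0181). Of these 6 genes, Cct2, Cct3 and Cct8 were not lower in 4T1R2, which was selected separately. The lower levels in 4T1R1 cannot be told apart from the number series of its libraries.

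Untreated 4T1R2 cells differed from 4T1 in all 8 subunits, in both directions. Of these, 5 were higher and 3 lower, where 25.6% of all genes were higher and 26.9% lower. Counting error is small at the counts of the subunits, so small shifts were called. The median absolute log2FC of all genes was 0.230, which among the subunits only Cct7, Cct6a and Cct3 exceeded. Cct7 was raised most, at 12877, 12880 and 12868 normalized counts against 10073, 10482 and 10177 in 4T1 (log2FC 0.33, 95% interval 0.28 to 0.38, adjusted P-value 7.21e-14). Cct3 (0.26), Cct8 (0.20), Cct2 (0.12) and Cct5 (0.069) were also higher. The call of Cct5 was lost without untreated 4T1 replicate 1 (0.048, adjusted P-value 0.130) or untreated 4T1R2 replicate 1 (0.056, adjusted P-value 0.0848). Lower in 4T1R2 were Cct6a, Cct4 and Tcp1. Cct6a had 17082, 16612 and 16825 normalized counts (log2FC -0.31, 95% interval -0.37 to -0.25). Cct4 had 11664, 11328 and 11460, against 12880 or more in each untreated 4T1 library (log2FC -0.19, 95% interval -0.24 to -0.13). Tcp1 had 14116, 14112 and 14115, against 15329 or more (log2FC -0.13, 95% interval -0.19 to -0.078). Tcp1, Cct4 and Cct6a were therefore below 4T1 in both resistant populations, which share the 4T1 libraries as reference.

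Set against each other, untreated 4T1R2 had 7 subunits higher than untreated 4T1R1 and 1 lower, with 19.7% of all genes higher and 19% lower. The populations differ in the number series of their libraries, so none of these differences can be told apart from it. Cct3 (0.42), Cct8 (0.40) and Cct7 (0.36) differed most, and the median was 0.29. Over all genes the median absolute log2FC was 0.164, more than the change of Tcp1, Cct4 or Cct5. Cct3 had 16131, 16453 and 15827 normalized counts in 4T1R2 and 12412, 11905 and 11837 in 4T1R1. Cct4 was the subunit called lower (log2FC -0.068, adjusted P-value 0.0436), a call that was lost without untreated 4T1R1 replicate 1, untreated 4T1R2 replicate 2 or untreated 4T1R2 replicate 3 (adjusted P-values from 0.0892 to 0.279), under RLE scaling (0.0515) and when only these groups were fitted (0.0972).

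Starting level and response add up differently in the 3 populations. The level of the set was taken in each library as the median over the 8 subunits of the log2 level relative to untreated 4T1. Averaged over libraries, treated 4T1 stood at 0.34 ± 0.0075 (SD, n = 2), untreated 4T1R1 at -0.17 ± 0.037 (SD, n = 3) and treated 4T1R1 at 0.039 ± 0.024 (SD, n = 3). Untreated 4T1R2 stood at 0.093 ± 0.014 (SD, n = 3) and treated 4T1R2 at 0.22 ± 0.018 (SD, n = 3). Treated 4T1R1 libraries (0.021 to 0.066) lay below untreated 4T1R2 libraries (0.083 to 0.11), and treated 4T1 was the highest group. The first order depends on TMM scaling, since as a share of all counts the means were the other way round (0.441% in treated 4T1R1 and 0.435% in untreated 4T1R2). These are descriptions over all 8 genes and carry no test.

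Because each ring holds every subunit once, the proportions among the 8 transcripts were also followed, as the log2 count of each subunit relative to the mean log2 count of the 8 in the same library, which does not depend on library scaling. Share below means this log2 value. It is centred on the mean of the 8, so a gain of any subunit forces losses in others. After 17-DMAG in 4T1, Cct7 gained 0.26 and Tcp1 lost 0.16 (change -0.16), although the transcript of Tcp1 rose. Cct8 changed by -0.083, Cct5 by -0.071, Cct4 by 0.054 and Cct2 by -0.012, and none of these subunits had overlapping libraries. In 4T1R1 Cct7 gained 0.10 and Cct6a 0.085, and Tcp1 changed by -0.079, Cct5 by -0.063 and Cct3 by -0.050, again with no overlap. In 4T1R2 Cct7 was the only subunit whose libraries did not overlap, with a gain of 0.066. The largest shift between untreated populations was that of Cct6a in 4T1R1 (-0.40), beyond the largest with treatment. Cct6a was at 0.41 ± 0.020 in untreated 4T1 but at 0.012 ± 0.044 in untreated 4T1R1 and 0.060 ± 0.015 in untreated 4T1R2 (SD, n = 3 each). Cct4 was at -0.26 ± 0.032 in untreated 4T1 and at -0.49 ± 0.015 in untreated 4T1R2, and Cct7 went from -0.61 ± 0.019 to -0.33 ± 0.0096. Cct3 and Cct8 rose in share in untreated 4T1R2, by 0.21 and 0.16.

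**Figure D3:**
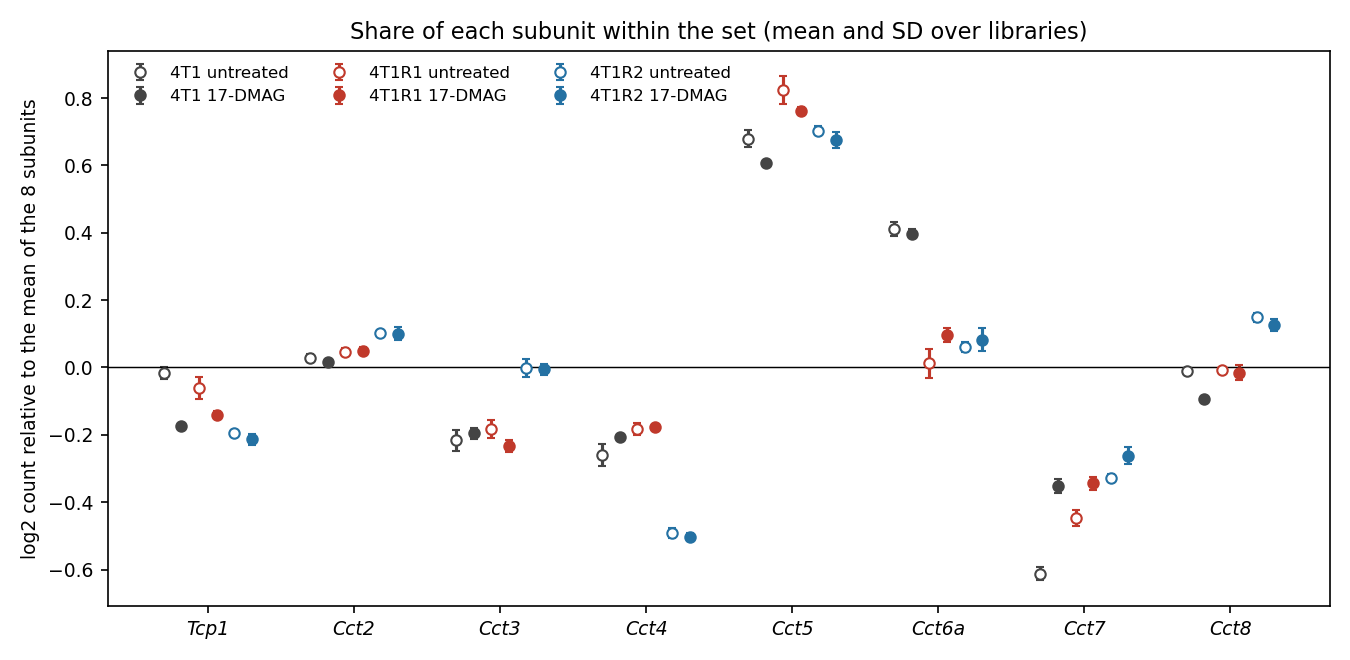
Log2 count of each subunit relative to the mean of the 8 subunits in the same library, as mean and SD over the libraries of each group (open untreated, filled 17-DMAG); counts are not divided by length, so heights compare groups within a gene and not genes with each other. Cct6a drops from 0.41 in untreated 4T1 to 0.012 and 0.060 in the resistant populations, Cct4 is lowest in 4T1R2 and Cct7 is lowest in untreated 4T1 (-0.61).

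Levels of different subunits can be compared only per length. On TMM-scaled CPM per kb of all annotated exons, Cct5 was highest in untreated 4T1 (293), followed by Cct2 (202), Cct6a (186), Cct8 (163), Cct4 (101), Tcp1 (99.4), Cct3 (68.4) and Cct7 (48.8). Cct4 and Tcp1 overlapped over the libraries and the other neighbours in that order did not. The highest level was 6 times the lowest. On this length Cct6a lay below Cct8 in 4T1R1 and 4T1R2, untreated and treated, the reverse of 4T1. The order depends on the length used, since the annotated exons include transcripts with retained introns, most in Tcp1 (7 transcripts) and Cct3 (5). With the length of the RefSeq-linked transcript, chosen after the data were seen, Cct5 was still highest (437 in untreated 4T1) and Cct7 lowest (136), a ratio of 3.23, but Cct3 (220) moved above Cct8 (210). There Cct6a was above Cct8 in treated 4T1R1 (224 and 213), overlapped with it in untreated 4T1R1 and treated 4T1R2, and was below it in untreated 4T1R2. On that scale Cct4 was below Cct7 in untreated 4T1R2 (149 and 170.3) and in treated 4T1R2 (164 and 197).

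**Figure D4:**
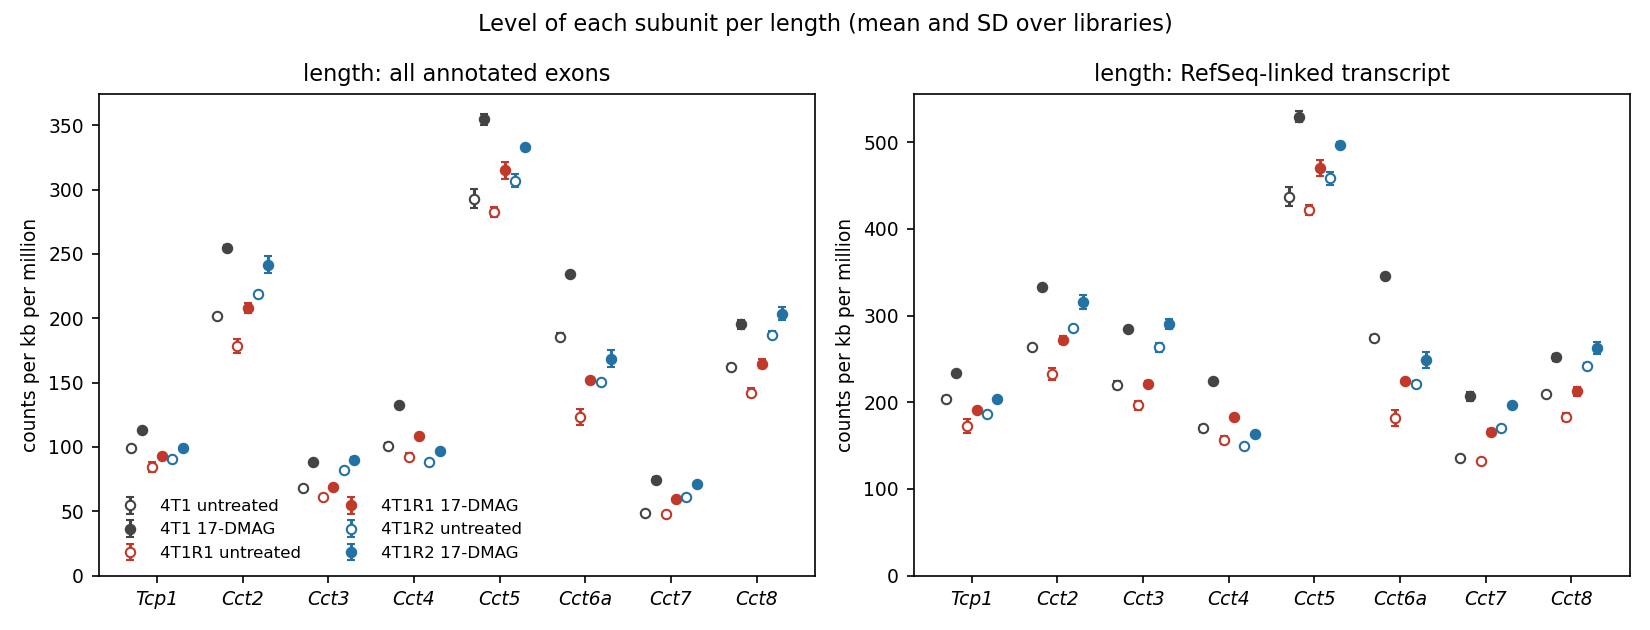
TMM-scaled CPM per kb of each subunit, mean and SD over libraries, with the length of all annotated exons (left) or of the RefSeq-linked transcript (right; for Cct6a, which has none in the annotation used, the longest transcript); open untreated, filled 17-DMAG. Cct5 is highest in all 6 groups with either length (293 and 437 in untreated 4T1), while the place of Cct3 changes with the length.

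Several subunit genes start beside another gene on the opposite strand, and the processing notes do not give the use of strand in counting, so reads from overlapping stretches cannot be assigned with certainty. Psph, for phosphoserine phosphatase, shares 452 bases with Cct6a at their 5′ ends. It had 838 to 949 normalized counts in untreated 4T1 and 2518 and 2561 in treated 4T1 (log2FC 1.52, adjusted P-value 3.43e-23), and a log2FC of 0.32 in 4T1R1 and 0.21 in 4T1R2. The gain of Psph in 4T1 was larger in fold than that of Cct6a (0.33). In both untreated resistant populations Psph was higher (0.19 in each) and Cct6a was lower. Whether reads are shared at this or the other overlaps was not tested. Pradc1 shares 457 bases with Cct7 and rose in 4T1 (0.66, adjusted P-value 0.000119) from 171 to 192 normalized counts untreated to 280.0 and 291 treated, far below the 10244 ± 212 (SD, n = 3) of Cct7. Mrpl18, a mitochondrial ribosomal protein gene that shares 645 bases with Tcp1, fell in 4T1 (log2FC -0.37, adjusted P-value 5.69e-08) while Tcp1 rose. At the 3′ ends, Acat3 overlaps Tcp1 by 1255 bases (log2FC 0.33 in 4T1) and Usp16 overlaps Cct8 by 192 (-0.11), and neither passed the test. Tsacc starts 117 bases from Cct3, Fam173b 48 from Cct5 and B130034C11Rik 126 from Cct8, with no call after 17-DMAG in any population. The small nucleolar RNA Snora20 lies within Tcp1 and was not called in these responses. Snora15, within Cct6a, was near the limit of detection at 12.4 to 21.5 normalized counts in untreated 4T1 and was lower in untreated 4T1R1 (log2FC -1.31, adjusted P-value 0.0286).

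Prefoldin and phosducin-like genes were not called with the subunits in 4T1. Over all genes tested, 18.4% were called higher and 17.9% lower in 4T1. The shares were 13.9% and 14.3% in 4T1R1, and 6.18% and 4.35% in 4T1R2. In lists this small such shares give few calls, so little can be read from 0 or 1 call. For prefoldin in 4T1, 0 calls lies below the shares over all genes, a difference that was not tested. Of 6 prefoldin subunits, which deliver unfolded actin and tubulin, edgeR called 0 after 17-DMAG in 4T1, with 0 at an unadjusted p under 0.05 and 0 by DESeq2, and log2FC from -0.069 to 0.043. In 4T1R2 edgeR again called 0, with 3 at an unadjusted p under 0.05 and 0 by DESeq2. All 6 estimates there were above 0, from 0.034 to 0.115 with a median of 0.094. The subunits, which have higher counts, ran from 0.117 to 0.21 in 4T1R2, so the estimates of the lists lie close together there. Vbp1, a prefoldin alpha-type subunit, was called in 4T1R1 (log2FC 0.31, adjusted P-value 3.76e-05), from 1395 to 1702 normalized counts untreated to 1944 to 1978 treated. Of the phosducin-like cofactors, Pdcl, Pdcl3 and Txndc9 were tested, and edgeR called 0 in any response, with 0 at an unadjusted p under 0.05 and 0 by DESeq2. Pdcl2 and the testis paralogue Cct6b, at no more than 2.14 and 5.85 normalized counts in any library, were not tested. The chaperonin-like genes Mkks, Bbs10 and Bbs12 gave 1 call, Bbs12 in 4T1R1 (0.42, adjusted P-value 0.0015). Among 6 tubulin cofactor genes, Tbce rose in 4T1 (0.26, adjusted P-value 0.0291). Tbcc, the GTPase activator of that pathway, fell there from 254 to 334 normalized counts to 143 and 175 (log2FC -0.92, adjusted P-value 2.62e-07). In 4T1R1 Tbcc (-0.29), Tbcb (-0.21) and Arl2 (-0.24) were lower.

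Of 14 actin and tubulin genes, 5 rose and 4 fell in 4T1, 2 rose and 2 fell in 4T1R1, and 4 rose and 0 fell in 4T1R2 (0 lower also at an unadjusted p under 0.05 and by DESeq2). Over all genes the shares were 18.4% higher and 17.9% lower in 4T1, 13.9% and 14.3% in 4T1R1, and 6.18% and 4.35% in 4T1R2, so the counts in 4T1R1 were at the background. Tubb2a, a beta-tubulin, had 769 to 814 normalized counts in untreated 4T1 and 1527 and 1647 after 17-DMAG (log2FC 1.00, adjusted P-value 1.86e-16), with 0.31 in 4T1R1 and 0.34 in 4T1R2. Tubb3, the neuronal beta-tubulin, rose by 2.18 in 4T1 but from 2.93 to 6.41 normalized counts to 18.9 and 25.9, a low level. Actb rose by 0.16 and Actg1 by 0.16 in 4T1, while Tubb5 and Tubb4b fell by 0.12 and 0.13. Tubulin genes are close copies, and how reads with several matches were treated is not given in the sources used here, so values of single tubulin genes are uncertain. Among 14 other clients, the anaphase-promoting complex activator Cdc20 (0.17) and the mTORC1 subunit Rptor (0.19) rose in 4T1, and cyclin E1 (Ccne1, -0.62) and Stat3 (-0.29) fell. In 4T1R1 6 fell and 0 rose (0 higher also at an unadjusted p under 0.05 and by DESeq2), among them Ccne1 (-0.20) and Stat3 (-0.19). In 4T1R2 edgeR called 0, with 3 at an unadjusted p under 0.05 and 0 by DESeq2. Hspd1 and Hspe1, the mitochondrial chaperonin and its lid, rose in all 3 populations by more than any TRiC subunit, by 1.11 and 1.27 in 4T1, 0.78 and 0.82 in 4T1R1 and 0.53 and 0.57 in 4T1R2.

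**Figure D5:**
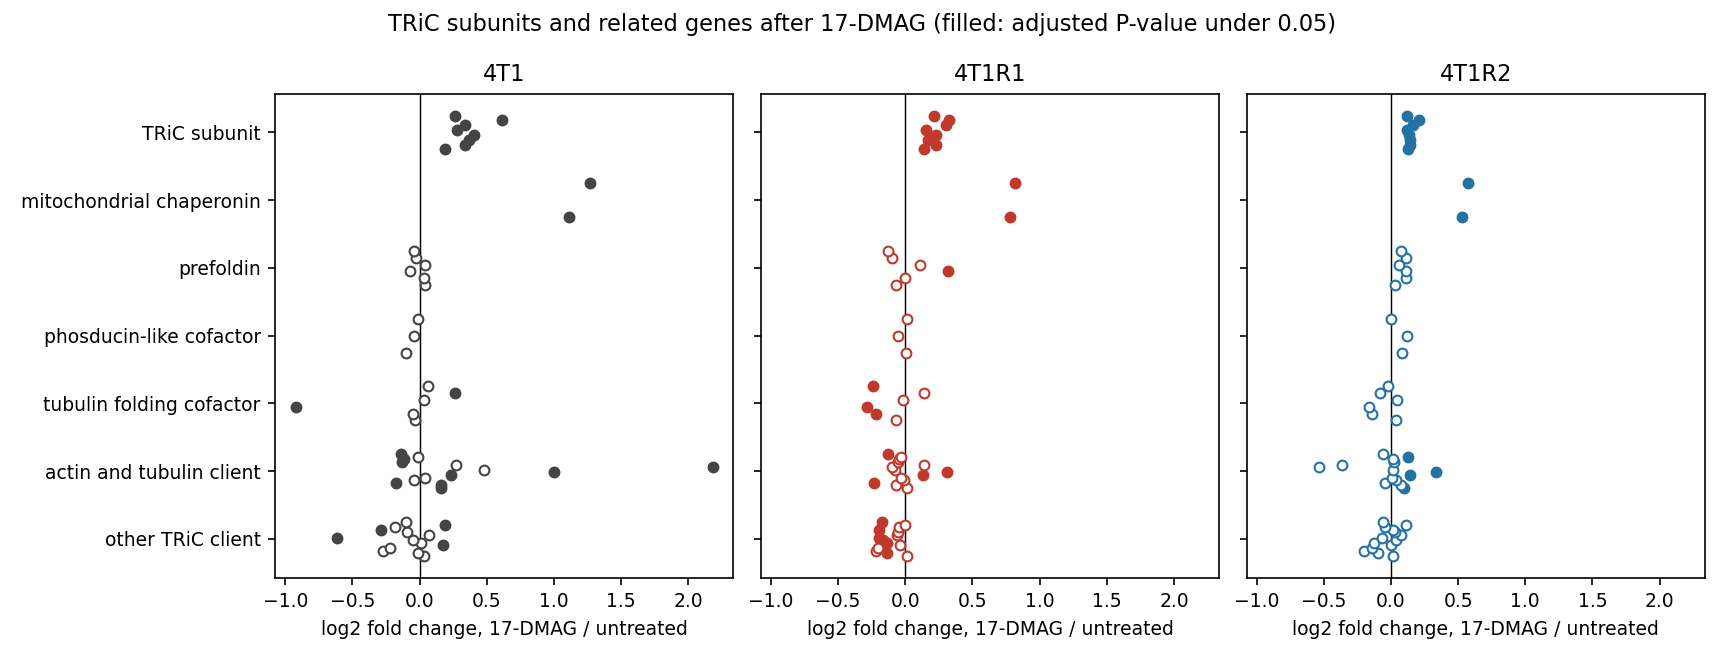
Log2FC after 17-DMAG in 4T1, 4T1R1 and 4T1R2 for the TRiC subunits and related gene groups, 1 point per gene, filled where the adjusted P-value of edgeR was under 0.05. TRiC subunits (medians 0.34, 0.22 and 0.14) are all filled and right of 0, and Hspd1 and Hspe1 lie further right. Prefoldin and phosducin-like genes lie around 0 in 4T1 and, except Vbp1 (0.31), in 4T1R1. In 4T1R2 the prefoldin genes are open but all right of 0 (0.034 to 0.115), and phosducin-like genes lie from -0.0016 to 0.12.

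Before treatment, prefoldin, phosducin-like, actin and tubulin genes and the mitochondrial chaperonin had negative median log2FC in both resistant populations, while the tubulin cofactors did not in 4T1R2. The counts stand against 27.5% of all genes lower and 25.2% higher in 4T1R1, and 26.9% lower and 25.6% higher in 4T1R2. Of the 6 prefoldin genes 5 were lower in 4T1R1, with a median log2FC of -0.41, and Vbp1 (-0.48), Pfdn4 (-0.47) and Pfdn1 (-0.43) differed most. In 4T1R2 4 were lower and Pfdn6 was higher (0.15), with a median of -0.14. Pdcl, Pdcl3 and Txndc9 were lower in both populations, with Pdcl at -0.49 in 4T1R1 and -0.39 in 4T1R2. Of the actin and tubulin genes 8 were lower and 3 higher in 4T1R1, and 8 lower and 2 higher in 4T1R2. Tuba1a (-0.70 and -0.60), Tubb4b (-0.53 and -0.54) and Actb (-0.35 and -0.27) fell in both, and Tubb2b was higher in 4T1R2 (1.98), at 120.0 to 138 normalized counts against 26.3 to 37.4 in 4T1. Of the tubulin cofactors 2 of 6 were lower in 4T1R1 (Tbcd at -0.55 and Tbca at -0.13), and in 4T1R2 edgeR called 0, with 0 at an unadjusted p under 0.05 and 0 by DESeq2. Of the 14 other clients 5 were lower and 2 higher in each population. Among the chaperonin-like genes Mkks, Bbs10 and Bbs12, Bbs12 was lower in both (-0.53 and -0.50). Hspd1 and Hspe1 were lower too, by -0.41 and -0.58 in 4T1R1 and by -0.30 and -0.38 in 4T1R2, a direction that in 4T1R2 was shared by Tcp1, Cct4 and Cct6a but not by the other 5 subunits.

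Across the 17 libraries the subunits did not form 1 profile. Pearson correlations of log2 normalized counts between pairs of subunits ran from 0.23 to 0.98 with a median of 0.76 (28 pairs; the libraries share 6 group means and 1 scaling). Cct3 and Cct8 (0.98) and Tcp1 and Cct6a (0.98) were the closest pairs, and Cct4 with Cct8 (0.23) and with Cct3 (0.23) the most distant. Against the mean profile of the 8, Cct2 was closest (0.98) and Cct4 farthest (0.64). Among 10330 genes whose normalized counts averaged 100 or more, the 5 outside the set most like that mean were Ppid (0.98), Slc16a6 (0.97), Tnfrsf21 (0.96), Skp1a (0.96) and Rbm8a (0.96). Ppid encodes cyclophilin 40, a co-chaperone of HSP90. Its normalized counts were 5931 to 6369 in untreated and 8555 and 9082 in treated 4T1, 4808 to 4975 and 6120 to 6338 in 4T1R1, and 6592 to 6743 and 7800 to 8108 in 4T1R2. Ppid was highest in treated 4T1 and lowest in untreated 4T1R1. By group means, Tcp1, Cct2, Cct5, Cct6a and Cct7 shared that order. For Cct5 and Cct7, however, untreated 4T1R1 and untreated 4T1 libraries overlapped (adjusted P-values 0.0707 and 0.352 in edgeR's test). Cct3 and Cct8 were instead highest in treated 4T1R2, and Cct4 was lowest in untreated 4T1R2.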

How the data were processed

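The 18 libraries (6 groups of 3) were stranded and came from RNA without its ribosomal part. The authors deposited whole-number read counts per gene symbol, which their processing notes credit to STAR and featureCounts (Subread 1.6.2) on mm10/GRCm38, after bcl2fastq 2.20, without normalization. The annotation, the strand setting and the handling of multi-mapped reads are not given in the sources used here. The series description calls the libraries of a group biological replicates.

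Counts were analysed with edgeR 4.0.16 (limma 3.58.1) in R 4.3.3: filterByExpr, TMM scaling, 6 group means without further covariates, the quasi-likelihood test, and Benjamini-Hochberg adjustment over 13507 genes with a threshold of 0.05. Replicates 1 and 2 of 17-DMAG-treated 4T1, compared by chi-square on genes whose 2 counts summed to 4 to 30, were averaged, giving 17 fitted libraries. Totals were 23354461 to 55094630 counts, and 65.6% to 70.8% of the low counts (1 to 12) of a library were even numbers, so a count appears to be a read and not a fragment. Ribosomal precursor Rn45s took 9.54% to 15.6% of counts. The comparisons were the 3 responses to 17-DMAG, the 3 differences between untreated populations and the 3 differences between responses, and they share control libraries.

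Named genes were the 8 subunits, the called genes of the lists of TRiC partners, clients and check genes, annotated genes that overlap a subunit or start within 1 kb of its start, and the 5 genes most correlated with the subunits (log2 of the normalized count plus 1). Subunits and lists were chosen with earlier results of these data known. Genes of the lists that were not called are covered by counts or ranges. Positions came from GENCODE and promoter sequences from RefSeq, both GRCm38. Alternatives tried were no filter, RLE scaling, total counts as the only scaling, at least 10 counts in every library, DESeq2 1.42.0, only the groups compared, 18 separate libraries, the replicate number as a block, each library left out in turn and other gene lengths, of which the RefSeq-linked length was added after the data were seen. Scripts were first tested on simulated data. Plots used matplotlib 3.10.9 (Python 3.11.15).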

Additional observations from a re-analysis of the deposited data

Results flagged for a closer look

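In 12 cases a test of the difference itself found that the response of a subunit to 17-DMAG was not the same in a resistant population as in 4T1 (edgeR's interaction test, adjusted P-value under 0.05, TMM scaling). For 4T1R1 minus 4T1 the log2 values were -0.11 for Cct2, -0.20 for Cct3, -0.17 for Cct4, -0.12 for Cct5 and -0.29 for Cct7. For 4T1R2 minus 4T1 they were -0.19 for Cct2, -0.23 for Cct3, -0.27 for Cct4, -0.16 for Cct5, -0.17 for Cct6a, -0.40 for Cct7 and -0.14 for Cct8. All of these are smaller responses, and each rests on the same 5 fitted libraries of 4T1. Each population is a single one, so the P-values measure spread among libraries and not among selected populations. The call of Cct2 in 4T1R1 was lost in 11 of 19 fits that left out a library or the averaged pair. Under scaling by total counts alone, 1 of the 8 subunits was called smaller in 4T1R1 and 4 in 4T1R2. No group had enough libraries for a check of single outlying samples.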

How the results depend on the processing

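Over 27 alternatives, 1890 of 1944 values of single subunits kept their direction and side of the threshold, 35 lost a call, 12 gained one and 7 reversed. Replicate numbers did not pair the libraries (correlations of deviations -0.052 to 0.050 over 45 same-numbered pairs, none over 0.1, and 6 of 18 libraries closest to their own number). With the replicate block, 72 of 72 values kept their call and the responses had a median over the subunits of 0.33 for 4T1, 0.22 for 4T1R1 and 0.14 for 4T1R2. Scaling by total counts alone changed most: the medians were 0.22 (4T1), 0.25 (4T1R1) and 0.091 (4T1R2, 4 members higher) after 17-DMAG and 0.11 for untreated 4T1R2 against 4T1. For the response of 4T1R1 minus 4T1 the median was 0.034 with 1 lower, for 4T1R2 minus 4T1 -0.11 with 4 lower, and for 4T1R2 minus 4T1R1 -0.17 with 6 lower. Single values reversed there in 4T1R1 minus 4T1 for Tcp1 (0.098), Cct2 (0.038), Cct5 (0.030), Cct6a (0.12) and Cct8 (0.099), and in 4T1R2 minus 4T1 for Tcp1 (0.0039), none of them past the threshold. RLE scaling, and fitting only the groups compared, left 0 subunits lower in untreated 4T1R2 against 4T1R1. For the response of 4T1R2 minus 4T1R1, 1 was lower with no filter and 2 with DESeq2. Leaving out each library in turn gave 0 to 1 lower and medians of 0.26 to 0.31 for untreated 4T1R2 against 4T1R1, 3 to 5 lower for 4T1R1 minus 4T1, medians of -0.20 to -0.17 for 4T1R2 minus 4T1, and 0 to 1 lower for 4T1R2 minus 4T1R1. In that last difference Tcp1 ranged from -0.039 to 0.023, the latter without untreated 4T1R1 replicate 2. The causes of these changes were not tested. Depth did not limit the subunits, but 2 or 3 libraries a group and the unknown strand setting limit the small differences and the values at shared gene ends.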
